A study of Mus musculus with 4 samples.

Results

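Translation initiation factor genes were examined in direct RNA nanopore reads of mouse embryonic stem cells. They were taken as every gene symbol in the deposited table that begins with Eif and a digit from 1 to 6, without pseudogenes, and only reads with a tail length above 0 were used. This gave 54 of the 13831 symbols in the table and 26418 of its 1903919 reads. The cells were J1 embryonic stem cells, a male mouse line cultured in medium with fetal calf serum and LIF, and all of them went untreated. The first genotype was wild type (WT, libraries WT 1 and WT 2). The other carried a knockout of Mov10, which encodes an RNA helicase (KO, libraries KO 1 and KO 2). The labels do not say how the knockout was made, whether it is 1 clone, or whether the libraries of a genotype came from separate cultures, so p-values measure only the spread between these libraries. The libraries held 439535, 351133, 683239 and 430012 reads in that order.

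Initiation factors bring the small ribosomal subunit, loaded with the initiator tRNA, to the capped end of an mRNA and let it scan to the start codon. The eIF4 group binds the cap and unwinds the leader, eIF3 bridges the mRNA and the ribosome, eIF2 delivers the initiator tRNA, and eIF1, eIF1A and eIF5 control start codon choice. The poly(A) tail takes part in the same step, because the scaffold eIF4G also binds the poly(A)-binding protein. In direct RNA sequencing each read is a native molecule read from its tail, so a read number needs no division by gene length, and levels below are reads per 1000000 reads of the library (RPM).

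Some facts of the whole series bear on these genes. Mov10 had 26 and 14 reads in WT and 0 and 1 in KO, a log2 change of -5.08, and it was the only gene called for read number (limma voom, Benjamini-Hochberg adjusted p = 0.0335). Over the alternative settings that kept Mov10 that p ran from 2.06e-06 to 0.993, the highest without KO 2. All 10 stem cell markers examined were detected, with summed levels from 7246 to 9691 RPM, lower in both KO libraries (8307 and 7246 RPM) than in both WT libraries (9565 and 9691 RPM). Of 6 fibroblast markers only Thy1 had reads, and summed levels were at most 6.98 RPM for mesoderm and 5.70 RPM for endoderm markers, with T, Sox17 and Foxa2 at 0. Neural markers summed to 29.6 and 76.9 RPM in WT and 124.4 and 88.4 RPM in KO, nearly all of it Tubb3, with Sox1 at 0. The part of these differences in the results below was not tested.

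WT 1 stood apart from the other libraries in how reads were assigned to transcripts, and this was seen in the initiation factor genes. The leading transcript of a gene was taken as the one with the highest mean share of its reads over the 4 libraries. There were 12 initiation factor genes with at least 2 transcripts in use (a second transcript with a mean share of at least 10%). In these the leading transcript held a median of 75.2% of the gene's reads in WT 1, against 55.6, 53.9 and 62.2% in WT 2, KO 1 and KO 2. The share of the leading transcript was highest in WT 1 for 10 of the 12 (83.3%), the exceptions being Eif4e2 and Eif4h. Over 819 genes of all kinds it was highest in WT 1 for 487 (59.5%). For Eif5a, whose protein carries the modified residue hypusine and helps elongation past difficult peptides, the shares were 76.8, 32.1, 31.3 and 40.8% in WT 1, WT 2, KO 1 and KO 2. The medians over the 819 genes were 71.8, 60.3, 60.4 and 62.9%, so the shift was general. WT 1 also stood apart in read level: of the 47 initiation factor genes whose mean reached 10 reads per library, 24 were lowest in WT 1, or 51.1%, against 42.6% of the 4815 genes with that many reads. The part of this library in each result was measured only by leaving it out.

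**Figure D1:**
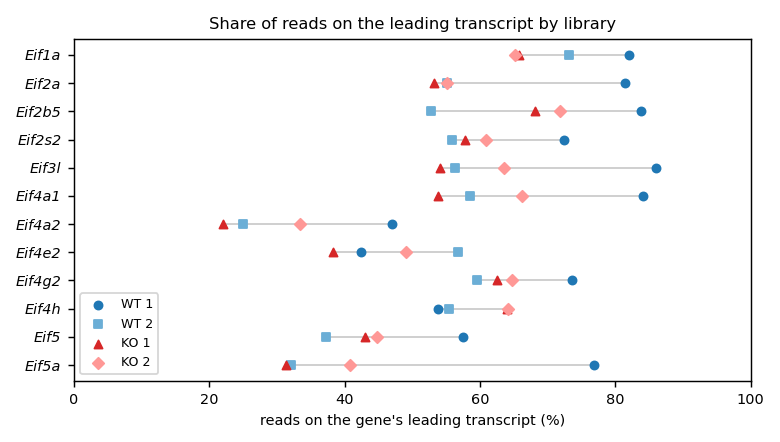
Share of each gene's reads on its leading transcript (x axis, %) for the 12 initiation factor genes with at least 2 transcripts in use (rows), with 1 point per library. WT 1 is the rightmost point for 10 of the 12 genes, and its median of 75.2% is above those of the other libraries, which lie between 53.9 and 62.2%.

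Levels spanned a wide range. Of the 54 genes, 7 had a mean under 10 reads per library and together held 78 reads: the eIF2 alpha kinase genes Eif2ak2, Eif2ak3 and Eif2ak4, the scaffold gene Eif4g3, and Eif4ebp3, Eif5a2 and Eif4a3l1. The 3 highest were Eif1, Eif4a1 and Eif4ebp1, and the 3 lowest were Eif4a3l1, with 2 reads in WT 2 and none elsewhere, Eif2ak2 and Eif4ebp3. Eif2ak2, which encodes the kinase PKR that senses double-stranded RNA, had 0 reads in both WT libraries, 4 in KO 1 and 1 in KO 2, too few to compare. Summed over all 54 genes, the 4 levels were 13134 and 14382 RPM (WT) and 13581 and 14688 RPM (KO), or from 1.31 to 1.47% of all reads. The mean was 13758 ± 882 RPM in WT and 14134 ± 783 RPM in KO (SD, n = 2 each). The libraries of the genotypes overlapped, and the difference of 376 RPM was smaller than the SD of either genotype. With median-of-ratios scaling it was -618 RPM. In bulk RNA a lower level from fewer cells of a type and from less RNA per cell cannot be told apart.

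The eIF3 subunits formed the largest share, with 14 genes and 35.7% of the reads of all initiation factor genes. Their summed level was 4823, 5269, 4959 and 4823 RPM in WT 1, WT 2, KO 1 and KO 2. Within the complex the genes were far from equal. Eif3k, a small peripheral subunit, had 782.6, 791.7, 712.8 and 704.6 RPM, while Eif3a, the large core subunit on which the complex assembles, had 100.1, 193.7, 203.4 and 223.3 RPM. The read ratio of Eif3k to Eif3a was 7.82 in WT 1 and 4.09, 3.50 and 3.16 in the others. Eif3j1 and Eif3j2, near-identical copies of the loosely bound subunit j, share both of their transcripts in the table, so their reads cannot be divided with certainty.

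Start codon factors came next, led by Eif1, whose protein keeps the ribosome scanning until the start codon is found. Eif1 had 1513, 971.1, 1019 and 1030 RPM in WT 1, WT 2, KO 1 and KO 2, so WT 1 was high and the other libraries were close together. Its paralog Eif1b had from 38.7 to 42.7 RPM, and the ratio of Eif1 to Eif1b was 39.1, 22.7, 24.0 and 24.6. Both genes for eIF1A, Eif1a and the X-linked Eif1ax, were read, at means of 152.3 ± 54.5 and 228.2 ± 24.7 RPM in WT and 192.6 ± 30.2 and 258.4 ± 26.0 RPM in KO (SD, n = 2). Eif5, whose protein triggers GTP hydrolysis by eIF2, and Eif5b, the GTPase that joins the ribosomal subunits, were each lowest in WT 1, at 106.9 and 56.9 RPM, against at least 166.9 and 86.4 RPM in the other libraries.

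The subunits of eIF2, which form a complex with each protein in equal number, were read unequally. Eif2s2, for the beta subunit, had 602.9, 922.7, 739.1 and 702.3 RPM, and its read ratio to Eif2s1, the alpha subunit that is phosphorylated under stress, was 2.73, 3.64, 3.32 and 2.82. The gamma subunit comes from an X-linked and a Y-linked gene. Eif2s3x had 39, 54, 99 and 88 reads in WT 1, WT 2, KO 1 and KO 2, and Eif2s3y had 3, 9, 35 and 13, a ratio from 2.83 in KO 1 to 13 in WT 1. The 5 genes of eIF2B, the factor that reloads eIF2 with GTP, summed to 336 ± 28.1 RPM in WT and 362 ± 14.7 RPM in KO (SD, n = 2). All 4 eIF2 alpha kinase genes together reached 31.9, 37.0, 54.2 and 46.5 RPM, and Eif2ak1, for the heme-regulated kinase, gave the largest part. All 48 reads of Eif2ak1 lie on transcripts that also carry reads of the symbol Aimp2, so this part is uncertain. The transcript with most of them held 39 reads of Eif2ak1 and 11 of Aimp2.

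Among the eIF4 genes, reads of an inhibitor of eIF4E outnumbered those of Eif4e, which encodes the cap-binding protein. Eif4ebp1, whose protein sequesters eIF4E until mTOR phosphorylates it, had 901.0, 749.0, 762.5 and 911.6 RPM. Eif4e had 200.2, 125.3, 125.9 and 174.4 RPM, so the ratio was between 4.50 and 6.06 in every library. Eif4e2, for a cap-binding relative that does not bind eIF4G and is known in repression, was also above Eif4e throughout, at 359.5, 481.3, 355.7 and 402.3 RPM. Of the scaffolds, Eif4g2, a relative of eIF4G without the eIF4E-binding part and known to be needed for embryonic stem cells to differentiate, exceeded Eif4g1 by ratios of 7.59, 13.2, 10.3 and 17.8. Eif4g2 itself had 293.5 RPM in WT 1 and 865.8, 786.0 and 786.0 RPM in WT 2, KO 1 and KO 2, and here too WT 1 was the library that stood apart.

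The helicase genes were ordered Eif4a1, Eif4a3, Eif4a2 in mean level. Eif4a1 and Eif4a2 encode closely related forms of the helicase that unwinds leaders, while eIF4A3 belongs to the exon junction complex. Eif4a1 had 932.8, 1051, 958.7 and 1202 RPM. Eif4a2 had 223.0, 227.8, 212.2 and 118.6 RPM, and the ratio of Eif4a1 to Eif4a2 was 4.18, 4.61, 4.52 and 10.1, with KO 2 apart from the rest. Eif4a2 and Eif4a3 overlapped in rank: Eif4a2 was the higher in both WT libraries and Eif4a3 in both KO libraries.

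**Figure D2:**
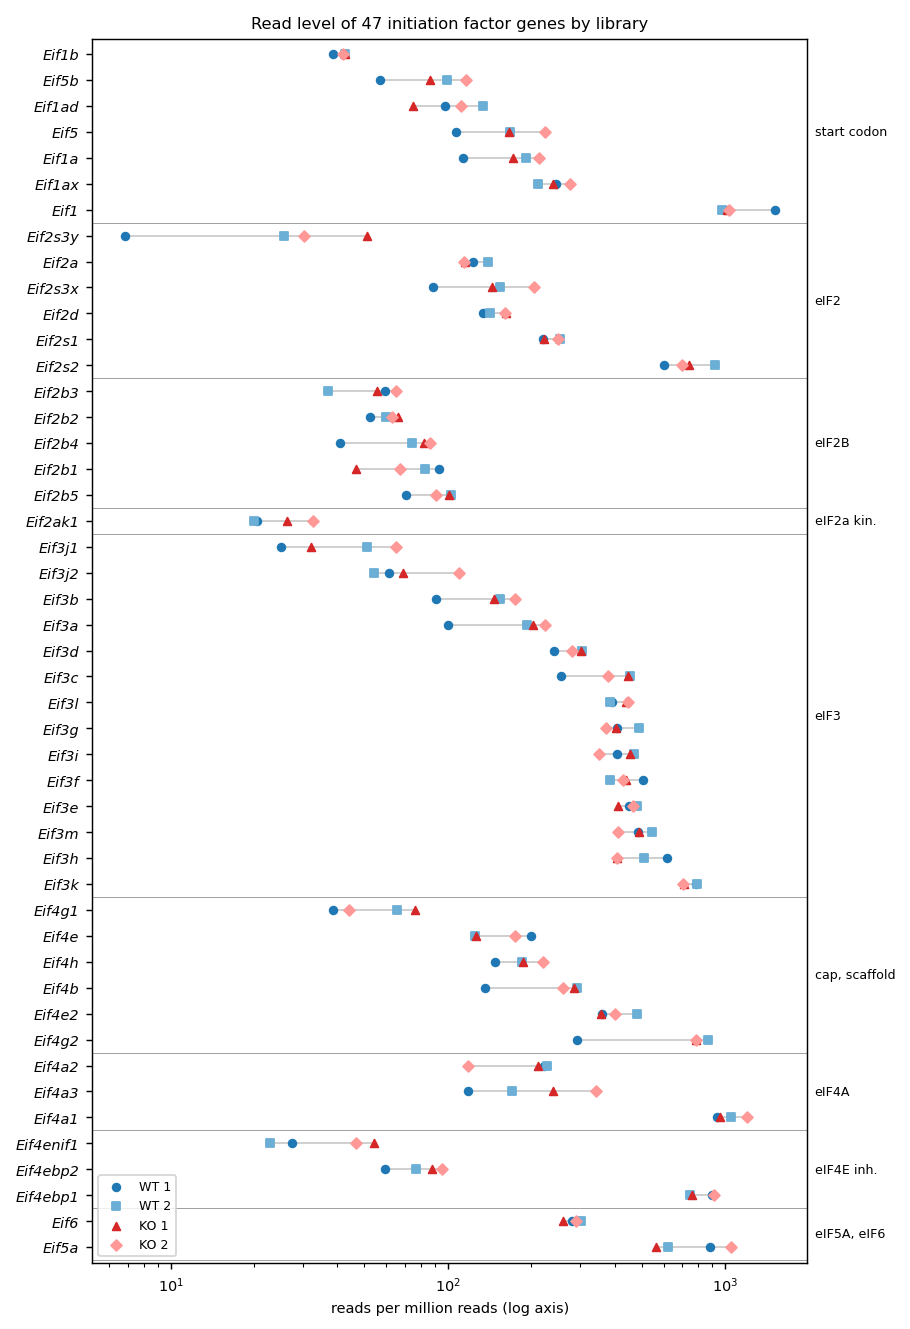
Level of the initiation factor genes whose mean reached 10 reads per library (x axis, RPM on a log scale), grouped by role, with 1 point per library. Eif1, Eif4a1 and Eif4ebp1 lie at the high end, Eif4g1 lies far below Eif4g2, and WT 1 is the lowest of the 4 libraries in 24 of 47 genes.

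Tail length was then described by the median over the reads of a gene, which was taken where all 4 libraries had at least 20 reads (38 genes). The medians over these 38 genes were 91.4, 103.9, 104.6 and 98.8 nt in WT 1, WT 2, KO 1 and KO 2, against 102.1, 109.4, 110.0 and 102.0 nt for all 1935 genes with that many reads. In those libraries 24, 25, 25 and 21 of the 38 lay below the median of all genes. Averaged over the 4 libraries, 23 of 38 were below, with a median of 98.6 nt against 105.8 nt. The SD of the 38 gene means was 16.1 nt and the typical SD of a gene over the libraries 8.52 nt, so genes differed from each other more than libraries did. Level and tail length were nearly unrelated, with a Spearman correlation of -0.100 over the 38 genes and -0.0998 over the 1935, which share the same libraries.

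The eIF3 subunits accounted for much of the short side. Of 12 with enough reads, 11, 11, 11 and 7 lay below the median of all genes in WT 1, WT 2, KO 1 and KO 2. Eif3g, an RNA-binding subunit that contacts the scanning ribosome, had the shortest mean tail of all 38 genes, with medians of 71.1, 82.9, 86.5 and 75.1 nt. Next were Eif2d, whose protein can place tRNA on the ribosome without eIF2, with 79.9, 70.8, 88.0 and 79.6 nt, and Eif6, whose protein keeps the large subunit from joining too early, with 80.4, 83.7, 90.3 and 70.3 nt. The ranges of these 3 genes overlapped, so their order was not resolved. Eif3d, a subunit that can itself bind caps, had 82.0, 96.1, 89.9 and 90.2 nt, and Eif3f had 86.3, 95.6, 97.2 and 86.1 nt.

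Within eIF3, Eif3a was the only subunit above the median of all genes in every library. Eif3b, Eif3c, Eif3h and Eif3l were above it in KO 2 only. The medians of Eif3a were 111.3, 123.6, 137.7 and 105.6 nt, above those of Eif3g by 40.2, 40.7, 51.2 and 30.5 nt. Eif3k had 90.4, 103.1, 100.4 and 97.4 nt, Eif3h 93.9, 97.7, 101.3 and 102.7 nt, and Eif3m 91.7, 100.1, 96.6 and 91.9 nt. Averaged over the 4 libraries, the subunits between Eif3g and Eif3a lay close together, with means from 89.6 to 98.9 nt. Single libraries spread more, as Eif3c ran from 76.3 nt in WT 1 to 113.2 nt in KO 2.

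Of the 6 start codon factors with enough reads, 2 lay below the median of all genes in each library, though not the same 2 genes. None was below it in all 4 libraries, and Eif1 was the only one above it in all 4. Eif1 had medians of 125.0, 136.9, 145.7 and 116.2 nt, and 39.0% of its reads had tails of 150 nt or more. Eif1 is both the gene with the most reads and the one with the second longest mean tail of the group. Eif1ax had 85.6, 111.6, 100.4 and 91.0 nt and Eif1a 125.6, 106.1, 119.3 and 97.0 nt, so the eIF1A genes overlapped. Eif5 had 132.7, 100.7, 128.4 and 111.4 nt, Eif5b 81.6, 129.5, 120.0 and 102.1 nt, and Eif1ad, for a protein with an eIF1A-like domain, 123.4, 112.2, 107.0 and 104.7 nt.

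Among the eIF2 genes, Eif2s3x, the X-linked gamma subunit gene, was the long one with 107.9, 129.5, 123.6 and 108.1 nt, and 0.357% of its 280 reads pooled over the libraries had tails under 30 nt, the lowest pooled share of the 38 genes. Eif2s1 had 88.3, 80.3, 97.6 and 84.4 nt and Eif2s2 95.7, 95.5, 105.1 and 84.0 nt. Pooled over the libraries, tails under 30 nt were most frequent on Eif2d and Eif2s2, at 6.23 and 6.09% of reads, but the libraries differed. Eif2d had 10.2, 14.0, 3.60 and 1.45% in WT 1, WT 2, KO 1 and KO 2, from 6, 7, 4 and 1 reads, and Eif2s2 had 5.28, 7.72, 5.35 and 6.29%. Eif2d was thus above Eif2s2 in both WT libraries and below it in both KO libraries, on few reads, and this was given no test. The eIF2B genes with enough reads, Eif2b1, Eif2b2 and Eif2b5, had mean tails from 92.8 to 105.2 nt.

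Cap-binding genes differed from each other. Eif4e had 125.3, 115.3, 136.6 and 129.9 nt, and Eif4e2 had 90.3, 94.5, 91.5 and 76.3 nt. Eif4e was longer in every library, by 35.0, 20.8, 45.1 and 53.6 nt, and their ranges did not overlap. The inhibitor gene Eif4ebp1 was the steadiest of the 38, with 102.8, 105.7, 105.3 and 103.2 nt and an SD over the libraries of 1.45 nt. Eif5a had 101.5, 119.9, 115.4 and 109.4 nt and was longer than Eif6 in each library.

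**Figure D3:**
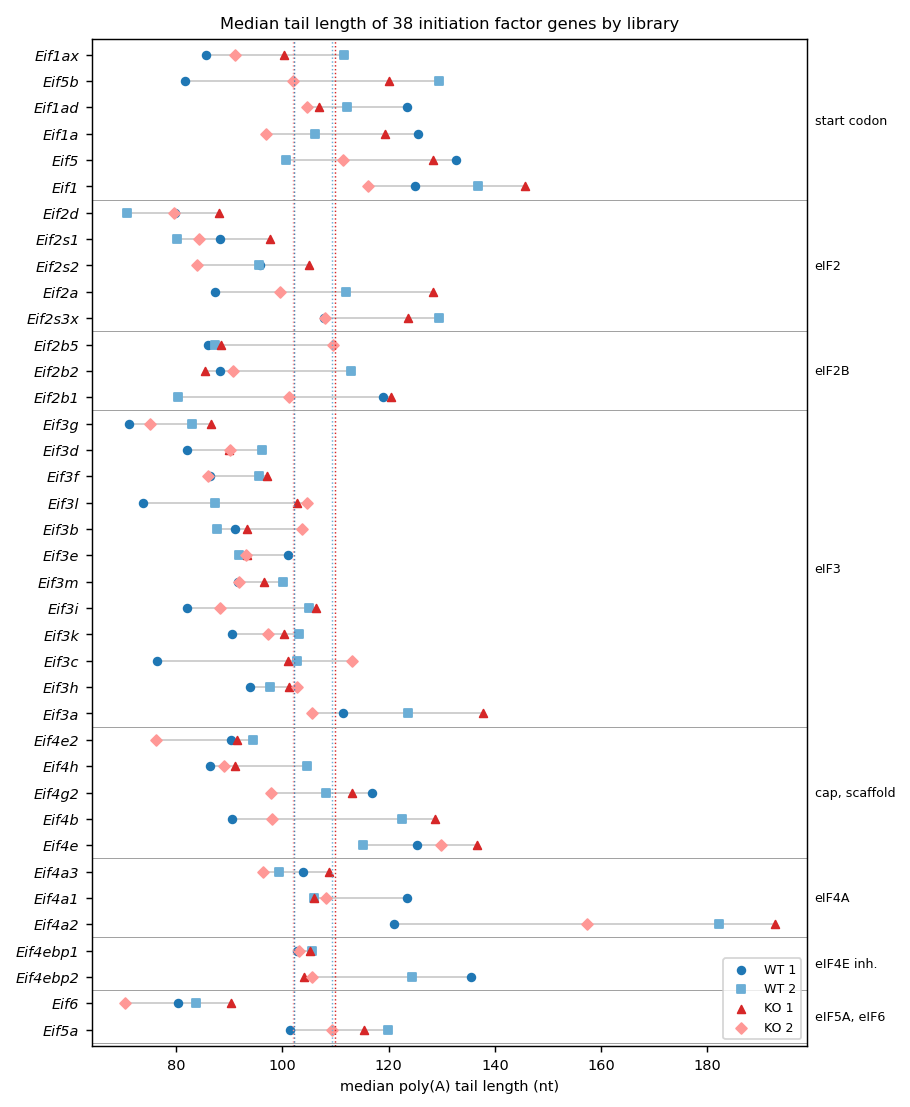
Median tail length (x axis, nt) of the 38 initiation factor genes that had at least 20 reads in every library, grouped by role, with 1 point per library and lines at the median of all 1935 genes in each library. Most eIF3 subunits lie left of the lines, with Eif3a to the right, and Eif4a2 reaches 182.2 nt in WT 2 and 192.7 nt in KO 1.

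Eif4a2 had the longest tails of the group. WT 1, WT 2, KO 1 and KO 2 gave medians of 121.0, 182.2, 192.7 and 157.3 nt, on 98, 80, 145 and 51 reads. The 95% intervals of these medians from the order of the reads were 98.0 to 139.8, 158.2 to 200.1, 179.3 to 217.5 and 101.7 to 195.4 nt, and they cover read sampling only. Counted from the longest among 1935 genes, Eif4a2 ranked 307, 2, 1 and 12 in the same order of libraries. WT 1 was thus the low library, with an interval that did not reach those of WT 2 and KO 1, while the interval of KO 2 included the WT 1 median. Tails of 150 nt or more made up 32.7, 71.2, 71.0 and 51.0% of its reads. The spread within the gene was also the widest, with an interquartile range of 132.9 nt over pooled reads against a median of 75.5 nt for the 38 genes.

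Its paralog Eif4a1 had medians of 123.4, 106.0, 105.9 and 108.2 nt. Eif4a2 exceeded Eif4a1 by 76.2, 86.8 and 49.1 nt in WT 2, KO 1 and KO 2, and was 2.42 nt shorter in WT 1, a mean difference of 52.4 ± 39.8 nt (SD over 4 libraries). In WT 1 the medians were close but the distributions were not alike, since Eif4a2 had a larger share of its reads than Eif4a1 both under 80 nt and at 200 nt or more. Eif4a3 had 103.9, 99.4, 108.8 and 96.3 nt. Reads of Eif4a2 were divided among several transcripts, and the one with the most reads (ENSMUST00000023599.12) held 46.9% of them in WT 1 and 25.0, 22.1 and 33.3% in WT 2, KO 1 and KO 2. Its own medians were 115.8, 154.7, 198.4 and 89.9 nt in those libraries. Whether transcript assignment sets the low median of WT 1 was not tested.

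**Figure D4:**
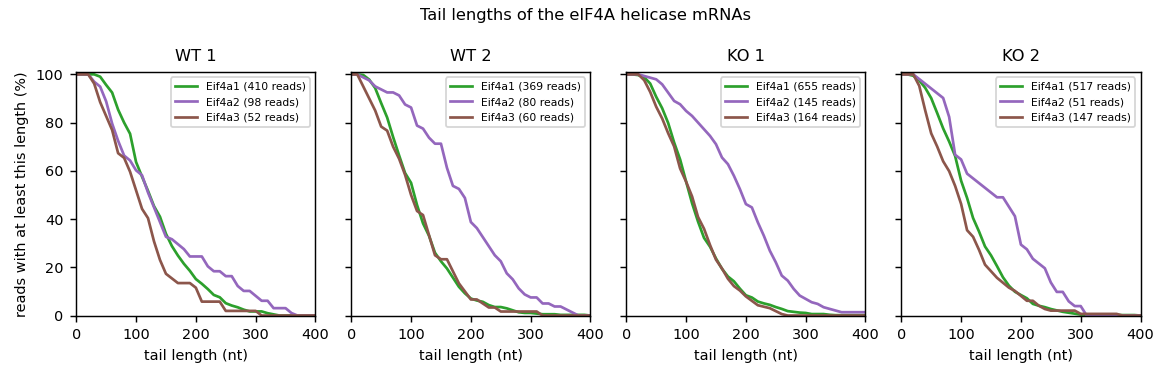
Share of reads (y axis, %) with at least the tail length on the x axis (nt) for Eif4a1, Eif4a2 and Eif4a3, with 1 panel per library. From 40 to 300 nt the curve of Eif4a2 lies to the right of the others in WT 2, KO 1 and KO 2. In WT 1 it crosses that of Eif4a1, with 66.3 against 80.0% of reads at 80 nt or more and 24.5 against 15.1% at 200 nt or more.

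The genotypes were compared gene by gene on the log2 scale with limma, for tail length. None of the 38 initiation factor genes passed an adjusted p of 0.05 (limma, Benjamini-Hochberg adjusted p = 0.9998 for each), as for all 1935 genes tested, of which 0% passed. At an unadjusted p under 0.05 there were 2 of the 38, Eif3l and Eif3c, where 2.33% of all genes were below it. The median log2 change, KO minus WT, was 0.02 for the initiation factor genes and 0.01 for all genes, and 23 of 38 (60.5%) were above 0 against 51.8%. The sign of the median turned with the library left out, in these genes and in all genes. Leaving out WT 1 or KO 1 gave -0.04 and -0.06, against -0.05 and -0.04 for all genes. Leaving out WT 2 or KO 2 gave 0.08 and 0.09, against 0.04 and 0.06 for all genes. Changes ran from -0.31 to 0.37 with a median standard error of 0.15. Tail medians of the genotypes did not overlap for 5 of 38 genes in the direction of longer tails in KO (13.2%, where 14.7% of all genes did so) and for 2 in the other direction (5.26%, where 11.8% did so). The 5 were Eif2b5, Eif3b, Eif3h, Eif3l and Eif4e, and the 2 were Eif1ad and Eif4ebp2.

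The genes with the smallest p-values for tail length encode 2 eIF3 subunits and an eIF4E inhibitor. Eif3l, a peripheral subunit that pairs with eIF3k, had medians of 73.8 and 87.3 nt in WT and 102.8 and 104.6 nt in KO, with both KO libraries above both WT libraries. The change on the log2 scale was 0.37, standard error 0.14 (limma, unadjusted p = 0.00638, adjusted p = 0.9998). With 1 library left out, the log2 change was 0.25 without WT 1 (limma, adjusted p = 0.977), 0.49 without WT 2 (0.0320), 0.38 without KO 1 and 0.36 without KO 2 (0.999 for both). Such a fit leaves a genotype with 1 library, which is assumed to vary like the other genotype. Eif3c, a core subunit that anchors eIF1 and eIF5, had 76.3 and 102.7 nt in WT and 101.1 and 113.2 nt in KO, where KO 1 lay between the WT libraries, and its log2 change was 0.27 (standard error 0.14). Without WT 1 this was 0.06 and without WT 2 it was 0.49 (limma, adjusted p = 0.977 and 0.0532). Eif4ebp2, whose protein acts like that of Eif4ebp1, had 135.5 and 124.3 nt in WT and 104.1 and 105.5 nt in KO, on 26, 27, 60 and 41 reads, and its log2 change was -0.31 (standard error 0.20). For Eif3l the leading transcript held 86.0% of reads in WT 1 and 56.3, 54.2 and 63.5% in the other libraries, and the part of this in its tail values was not tested.

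Over all reads of the 54 genes, short and long tails were compared by genotype. For tails under 30 nt the shares were 2.89 and 3.35% (WT 1 and WT 2) and 1.75 and 3.01% (KO 1 and KO 2). Their 95% Wilson intervals ran from 2.49 to 3.36%, from 2.88 to 3.88%, from 1.499 to 2.03% and from 2.61 to 3.46%. KO 1 was the low library, and KO 2 lay between the WT libraries. The means were 3.12 ± 0.321% in WT and 2.38 ± 0.893% in KO (SD, n = 2 each). KO 1 was also lowest over all genes, at 1.55% against 2.35 to 3.02% in the other libraries. Tails of 150 nt or more made up 21.9, 24.1, 25.2 and 20.9% of reads in WT 1, WT 2, KO 1 and KO 2, with means of 23.0 ± 1.51% in WT and 23.1 ± 3.05% in KO, so the genotypes overlapped. With 2 libraries per genotype these shares were given no test.

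Read numbers were compared with limma voom over 4815 genes, and none of the 47 initiation factor genes with enough reads passed (the lowest Benjamini-Hochberg adjusted p was 0.249), where 0.0208% of all genes did. At an unadjusted p under 0.05 there were 4 of 47, against 10.4% of all genes. The median log2 change was 0.07 for these genes and 0.00 for all genes, 27 of 47 (57.4%) were above 0 against 50.0%, and changes ran from -0.78 to 1.46. Scaled levels did not overlap between genotypes for 10 genes that were higher in KO (21.3%, where 20.5% of all genes were) and 14 that were lower (29.8%, where 19.98% were). Scaled by total reads the counts were 12 and 6 of 47, against 25.2 and 15.5% of all genes, so the direction of this split depended on the scaling. Of the 14 eIF3 subunits, 1 was higher and 6 were lower without overlap with median-of-ratios scaling, and 3 were higher and 3 lower with scaling by total reads. Eif3g, Eif3h and Eif3k were lower under both scalings, as were Eif2a, Eif2b1 and Eif4a2.

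The genes with the smallest p-values for read number were Eif4a3, Eif2b1, Eif3h and Eif2s3y. Eif4a3 had 118.3 and 170.9 RPM in WT and 240.0 and 341.9 RPM in KO, and no WT library reached a KO library. Its log2 change was 0.89, standard error 0.29 (limma, unadjusted p = 0.00585, adjusted p = 0.249), and over the alternatives the adjusted p ran from 0.0170, without WT 2, to 0.993, without KO 2. The 20 genes nearest to Eif4a3 among those tested, from Mettl23 to P4hb in the RefSeq order of GRCm38.p6, were all higher in KO, with a median log2 change of 0.87; this was the highest such median around any of 46 initiation factor genes.

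Eif2b1, for the alpha subunit of eIF2B, had 93.3 and 82.6 RPM in WT and 46.8 and 67.4 RPM in KO. Eif3h, for an eIF3 subunit, had 616.6 and 509.8 RPM in WT and 406.9 and 407.0 RPM in KO. Both were lower in each KO library than in each WT library. The log2 changes were -0.78 (standard error 0.35) for Eif2b1 and -0.57 (standard error 0.25) for Eif3h (limma, adjusted p = 0.446 and 0.447). Eif2s3y differed by 1.46 on the log2 scale, standard error 0.68 (limma, adjusted p = 0.463), and this rested on the 3, 9, 35 and 13 reads given above. Without WT 1 the log2 change of Eif2s3y was 0.66 and that of Eif3h was -0.31, and without KO 1 that of Eif2b1 was -0.48. Without WT 2 it was 2.21 for Eif2s3y, -0.80 for Eif3h and -0.96 for Eif2b1. Such fits leave a genotype with 1 library, so only the size of the change is given.

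**Figure D5:**
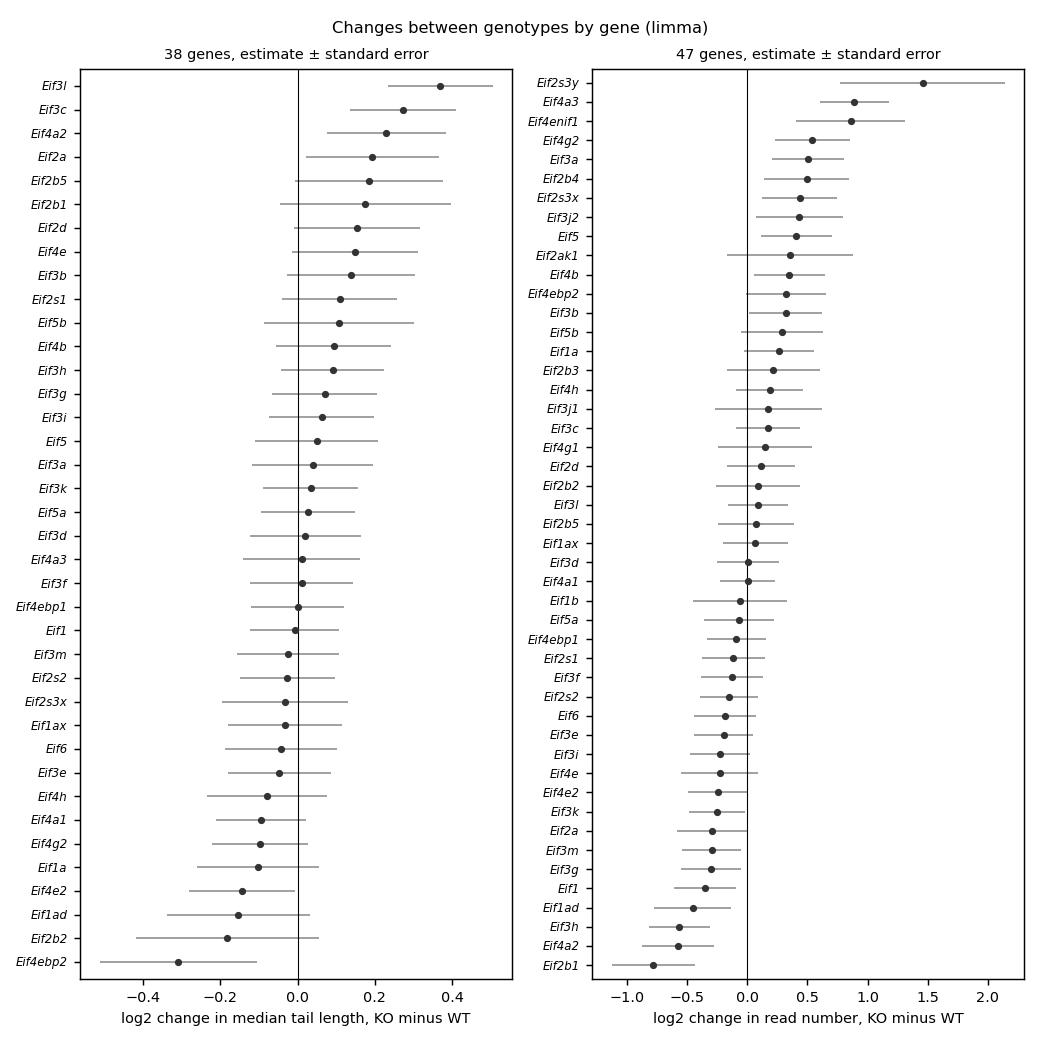
Log2 change, KO minus WT, of tail length (left, 38 genes) and read number (right, 47 genes), with the estimate as a point and its standard error from limma as a bar. Estimates lie on both sides of 0, from -0.31 to 0.37 for tail length and from -0.78 to 1.46 for read number, and none passed an adjusted p of 0.05.

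In the table symbols also carry a class, which names them as targets of Mov10 with m6A (a methylated adenosine in mRNA), as targets without m6A, or as non-targets. How these classes were made is not given in the sources used here. Of the 54 initiation factor genes, 24 were in the class of targets without m6A (44.4%, against 20.7% of all symbols), 7 were targets with m6A, 13 were non-targets and 10 had no class. Among the 38 with measured tails the first class held 21 (55.3%, against 37.2% of the 1935 genes), including 9 of the 12 eIF3 subunits, while Eif4a1, Eif4a2 and Eif4a3 were all non-targets. The initiation factor genes in the class without m6A had a median of mean tail lengths of 95.4 nt, and those that were non-targets 111.8 nt. All genes of these classes had 105.6 and 104.2 nt. The 5 targets with m6A had 108.3 nt and the 5 with no class 104.2 nt, against 108.9 and 106.4 nt for all such genes. Most eIF3 subunits are in the class of targets without m6A, and the differences between classes were not tested.

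Genes that work beside the initiation factors were taken from a list of 32, all of them detected. None was called in either test: 0 of 12 for tail length and 0 of 27 for read number (limma, lowest adjusted p = 0.9998 and 0.403). For tail length 1 gene, Bzw2, was at an unadjusted p under 0.05 (8.33%, where 2.33% of all genes were). For read number there were 3, Larp1, Abcf1 and Paip2b (11.1%, where 10.4% of all genes were). The 3 with the most reads were Pabpc1, Atf4 and Bzw1. Pabpc1, for the cytoplasmic poly(A)-binding protein, had tails of 96.9, 111.2, 117.3 and 99.1 nt in WT 1, WT 2, KO 1 and KO 2. Atf4, the stress transcription factor translated when eIF2 alpha is phosphorylated, had 109.1, 96.5, 107.1 and 117.0 nt, and Bzw1, for a mimic of eIF5, had 133.5, 116.5, 135.0 and 119.7 nt. The log2 tail changes were 0.05, 0.13 and 0.03, and the genotypes overlapped for each.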

How the data were processed

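Polyadenylated RNA of 4 libraries was sequenced by the authors on a MinION with the SQK-RNA002 direct RNA kit, per the labels' protocols. The deposited table gives a transcript, a symbol, a library, 3 class columns and a tail length for each read; tail lengths are estimates in nt with no recorded normalization, per the file headers. The submitters' processing notes name minimap2 2.20; the basecaller, genome build and tail estimator are not given in the sources used here. The 3 reads with a tail of 0 were left out.

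Read numbers were counted here from the reads. Median tail lengths (log2, at least 20 reads in each library) were tested with limma 3.58.1 (lmFit, eBayes with log2 mean reads as trend) in R 4.3.3. Read numbers were tested with limma voom (0.5 reads added, median-of-ratios scaling, mean of at least 10 reads). P-values were adjusted by Benjamini-Hochberg over all genes tested, with a threshold of 0.05. Both tests were run on simulated data of 4 libraries with known changes. The only condition set was that estimated and known changes correlate, with none on recovery or false calls. Fits with a library left out were not simulated. Tables were handled with Python 3.11.15.

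The genes and lists were chosen with earlier results of these data known. Genes are named by role. Where none passed a test, the 3 with the smallest p are named, with the 3 at each end of tail length and level. The ratios between genes, the neighbours of Eif4a3 and Eif2s3y were chosen after values were seen. On 1566 transcripts more than 1 symbol occurs, with 53.4% of all reads; 16 of the 54 genes lie on such a transcript. Symbols matched a gene identifier for 53 of 54. Alternatives changed the tail summary, read minimum, centring, scaling, depth, symbol assignment, model and libraries.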

Additional observations from a re-analysis of the deposited data

How the results depend on the processing

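For tail length, 1 gene of all was called with at least 10 reads in each library, and with 1 library left out the count ran from 0 to 2, the highest without WT 2; among the initiation factor genes it ran from 0 to 1 (Eif3l). The sign of the tail change turned for 8 to 14 of 38 genes with 1 library left out, most often without WT 1. For read number the count over all genes was 1 in the reported test, 7 with scaling by total reads, 96 with no filter, and 0 with a mean of at least 50 reads, with limma trend and at equal depth. With 1 library left out it ran from 0 (without KO 1 or KO 2) to 456 (without WT 2), with 90 without WT 1. Among the initiation factor genes the same runs gave 0 to 5, the 5 without WT 2 being Eif1 (log2 change -0.76), Eif2s3y (2.21), Eif3h (-0.80), Eif4a3 (1.04) and Eif4g2 (1.22). Without WT 1 the values of Eif1 and Eif4g2 were 0.09 and -0.12, on the other side of 0. The median log2 read number change of these genes was 0.19 with scaling by total reads, which moves the median of all genes to 0.11. In the initiation factor genes it was -0.0760 with a mean of at least 50 reads and -0.0150 at equal depth. In all genes it was -0.0543 and -0.0130 under these settings. With 1 library left out it ran from -0.000127 to 0.0917 in the initiation factor genes, against -0.0295 to 0.0295 in all genes. The summed level of the initiation factor genes differed by -618 RPM with median-of-ratios scaling and by -248 to 1000 RPM with 1 library left out. The causes of these moves were not tested.

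Same-numbered libraries showed almost no shared deviation, with r = 0.0135 over 1935 genes for tail length and 0.0155 over 4815 genes for read number. This cannot show whether they were prepared as pairs. With the replicate block, 65 genes were called for read number and 0 for tail length, and none of the initiation factor genes in either test. Depth limits the 16 genes with under 20 reads in some library, which have no tested tail length, and tails too short for oligo(dT) selection are not measured.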
